A study of Mus musculus with 9 samples.

Results

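The cytosolic ribosomal proteins were measured in OB-6 cells, a mouse osteoblastic line from bone marrow, on 1-colour oligonucleotide arrays of total RNA. The probe sets were chosen by name: a single gene symbol of Rpl or Rps and a digit, or Rplp0, Rplp1, Rplp2 or Rpsa, with the Rps6k kinases left out. This gave 49 of the 12488 probe sets, for 35 genes, and all 49 were found in the mouse RefSeq gene table by Entrez identifier. These 35 genes are among 8252 named singly on the array. The groups are cells harvested 0, 30 or 60 min after parathyroid hormone (PTH) was added, with arrays a, b and c at each time and 9 in all. All arrays come from 1 cell line, and neither its genotype, the hormone's dose nor how the cells were cultured is given in the sources used here. Cultures kept the same time without PTH are not analysed here, so time in culture and PTH cannot be told apart. Whether arrays a, b and c are separate cultures is not stated, so p-values measure only how far these arrays spread, and that spread may be technical.

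A ribosome is built of a large and a small subunit, each a folded ribosomal RNA held by many small proteins. The proteins are made in near equal amounts, enter the nucleolus, and are assembled there on the RNA by a separate set of assembly factors. Most of their mRNAs begin with a run of pyrimidines (the 5′ terminal oligopyrimidine, or TOP, motif), through which mTOR signalling controls how much of them is translated, so that protein output can change with little change in mRNA. In osteoblasts, which secrete collagen, ribosomes serve a high rate of protein synthesis.

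The arrays were deposited on a common scale, and the trimmed means ran from 250.13 to 250.16 intensity units. Array b at 60 min stood apart: it had the lowest median over all probe sets (73.1, against 73.7 to 88.5 on the rest), the highest 99th percentile (4722, against 3443 to 4187) and the lowest median correlation with the rest (0.938). The main results are therefore given as deposited and after quantile normalization, which gives every array the same distribution, and the calls at 60 min also without this array. As a check of treatment, Fos, an early response gene of cAMP signalling, read 30.9 ± 3.45 at 0 min, 698 ± 104 at 30 min and 169 ± 46.5 at 60 min (SD, n = 3). Nr4a1, an orphan nuclear receptor induced by PTH, read 44.0 ± 19.1, 306 ± 46.8 and 298 ± 44.6 (SD, n = 3), and both rose at both times (limma adjusted p from 3.44e-06 to 0.000803). Of the osteoblast markers, 8 of 9 probe sets for 5 of 6 genes passed the filter on low values; Col1a1, Col1a2, Sparc, Alpl and Ibsp did, and the PTH receptor Pth1r, at 6.70 to 41.6, did not.

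The intensities of different probe sets say nothing of the relative amounts of their mRNAs, since probes differ in how well they bind. Testing required an intensity over 44.7 on 3 or more arrays, which 32 member probe sets, for 26 genes, met. The 17 that were not have means of 6.89 to 36.6: Rpl32, Rpl35a, Rpl38 (2 probe sets), Rpl39, its testis-enriched paralog Rpl39l, Rpl7 (97697_at), Rps14, Rps15, Rps20, Rps24 (93121_at), the p53-induced paralog Rps27l, Rps29 (162335_at), Rps4l (98149_s_at) and Rps4x (162498_r_at, 162244_r_at and 162229_at). Ribosomal protein mRNAs are among the most abundant in any cell, and 19 of the 32 tested members were in the brightest 10% of tested probe sets (789 probe sets, from 1161 units up). The 5 brightest were Rps4x (100780_at), Rpl7 (97695_s_at), Rps10, Rps3a1 and Rps24 (97696_r_at).

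**Figure D1:**
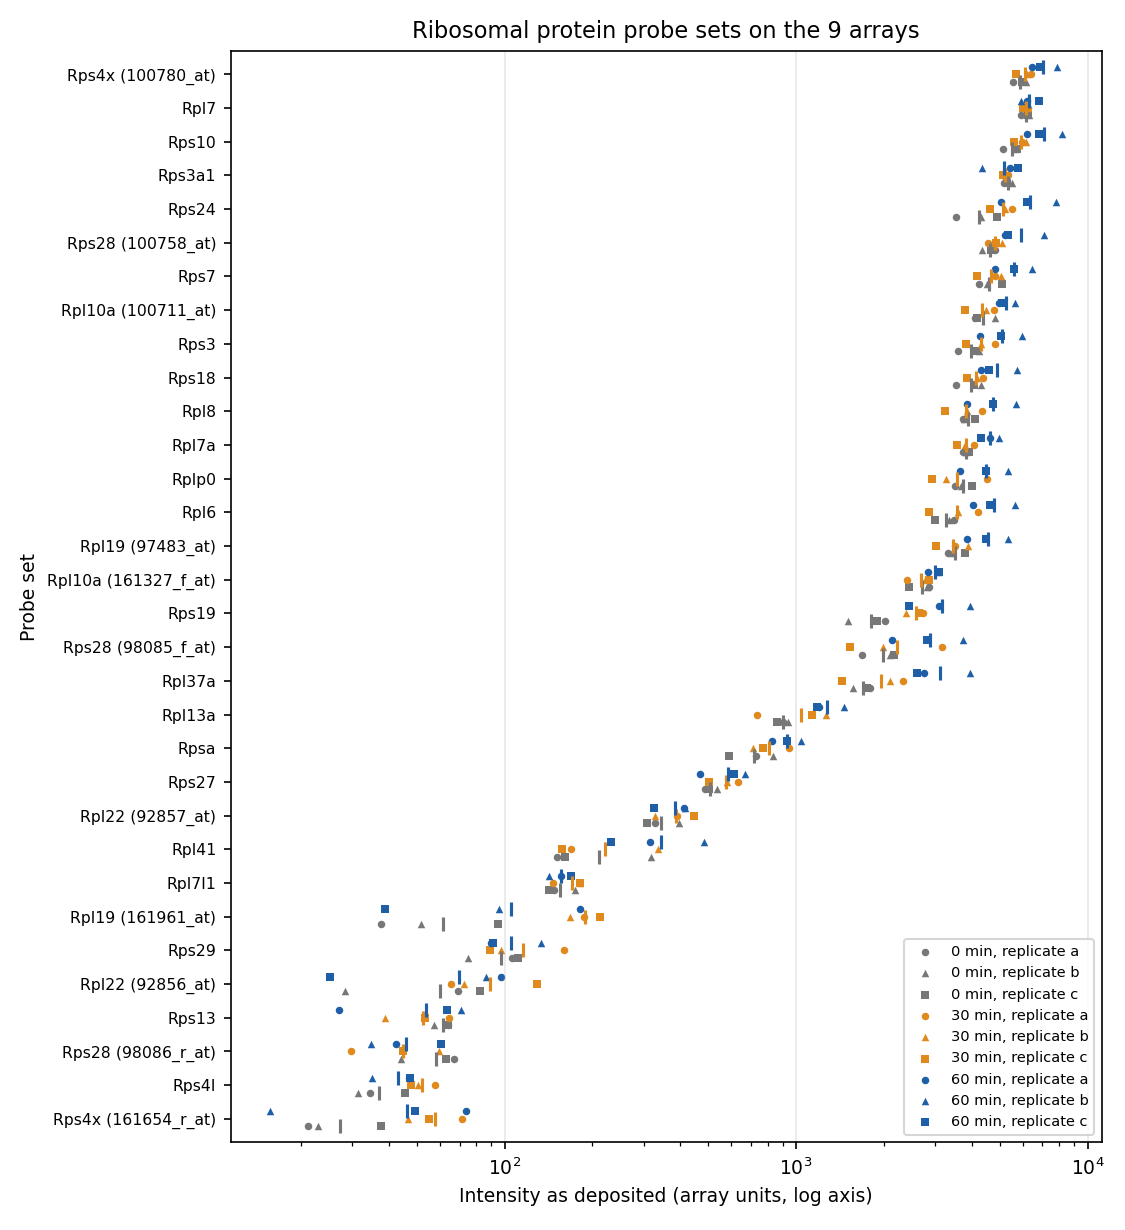
Intensity of the 32 tested ribosomal protein probe sets on each of the 9 arrays (log axis, array units as deposited), ordered by mean; colour gives the time, the marker shape the replicate letter and the vertical tick the mean of a time. Array b at 60 min (blue triangle) is the rightmost point of 21 of the 32 probe sets, and values of different probe sets are not comparable as amounts of RNA.

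At 60 min, 4 ribosomal protein probe sets were higher than at 0 min and 0 lower at a limma adjusted p under 0.05: Rpl37a and Rpl6 of the large subunit, and Rps19 and Rps24 of the small subunit. The rises were 1.45-fold to 1.79-fold. The 4 are 12.5% of the tested members, against 4.35% called higher and 8.73% called lower among all 7884 tested probe sets. In the brightest 10%, to which all 4 belong, 14.6% were called higher. Of the 19 members there the 4 are 21.1%, and of the 13 members outside it 0 were called. After quantile normalization Rpl37a and Rps19 kept their call and Rpl6 and Rps24 did not. This left 2 members higher (6.25%) and 0 lower, against 4.86% and 7.9% of all. In the brightest 10%, 9.0% were then called higher, and of the 19 members there 10.5%. At an unadjusted p under 0.05, 15 members were higher (46.9%) and 0 lower, against 14.5% and 18.4% of all. In the brightest 10%, 39.7% were higher at this p, and of the 19 members there 68.4%. After quantile normalization 6 members (18.8%) were higher at this p and 0 lower, against 16.5% and 16.1% of all, so that only the share higher was near that of all. In the brightest 10%, 20.2% were then higher, and of the 19 members there 21.1%. Without array b at 60 min only Rps19 was called as deposited, and without any 1 of the 0 min arrays 0 members were. Among all tested, 343 were called higher with all 9 arrays and 155 without array b at 60 min. Without array a, b or c at 0 min these were 31, 38 and 72.

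Rpl37a, a zinc-finger protein of the large subunit, read 1799, 1563 and 1747 on arrays a, b and c at 0 min. At 30 min the values were 2323, 2104 and 1436, and at 60 min 2750, 3962 and 2607. All 3 arrays at 60 min lay above all others, with array b the highest, while those at 30 min overlapped the 0 min arrays. The difference at 60 min was 0.84 on the log2 scale (SE 0.19, 1.79-fold, limma adjusted p = 0.0232), and 0.71 after quantile normalization (limma adjusted p = 0.0262).

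Rps19, a small subunit protein whose loss of 1 gene copy causes Diamond-Blackfan anaemia in people, read 2024, 1505 and 1890 at 0 min. It read 2719, 2374 and 2638 at 30 min, then 3100, 3956 and 2449 at 60 min. Every array with PTH lay above every array at 0 min, and the 30 and 60 min arrays overlapped. The difference was 0.79 at 60 min (SE 0.17, 1.73-fold, limma adjusted p = 0.0185; 0.67 and 0.0241 after quantile normalization). At 30 min it was 0.52 (SE 0.17) and did not pass (limma adjusted p = 0.155).

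Rpl6, a large subunit protein, read 3473, 3359 and 2986 at 0 min, 4200, 3606 and 2850 at 30 min, and 4037, 5658 and 4627 at 60 min. The 60 min arrays lay above those at 0 min, and array a at 30 min lay within their range. The difference was 0.53 (SE 0.16, 1.45-fold, limma adjusted p = 0.0472), which became 0.29 after quantile normalization (limma adjusted p = 0.127).

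The Rps24 probe set 97696_r_at read 3524, 4315 and 4901 at 0 min, 5495, 5210 and 4624 at 30 min, and 5064, 7766 and 6213 at 60 min. The 0 and 60 min groups did not overlap, though array a at 60 min lay only a little above array c at 0 min. The difference was 0.57 (SE 0.16, 1.48-fold, limma adjusted p = 0.0426), and 0.32 after quantile normalization (limma adjusted p = 0.0626), when the groups overlapped. The platform annotation gives this probe set the same source sequence as the Rpl7 probe set 97695_s_at, so which mRNA it reads is uncertain, and the second Rps24 probe set (93121_at, mean 36.2) did not pass the filter.

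**Figure D2:**
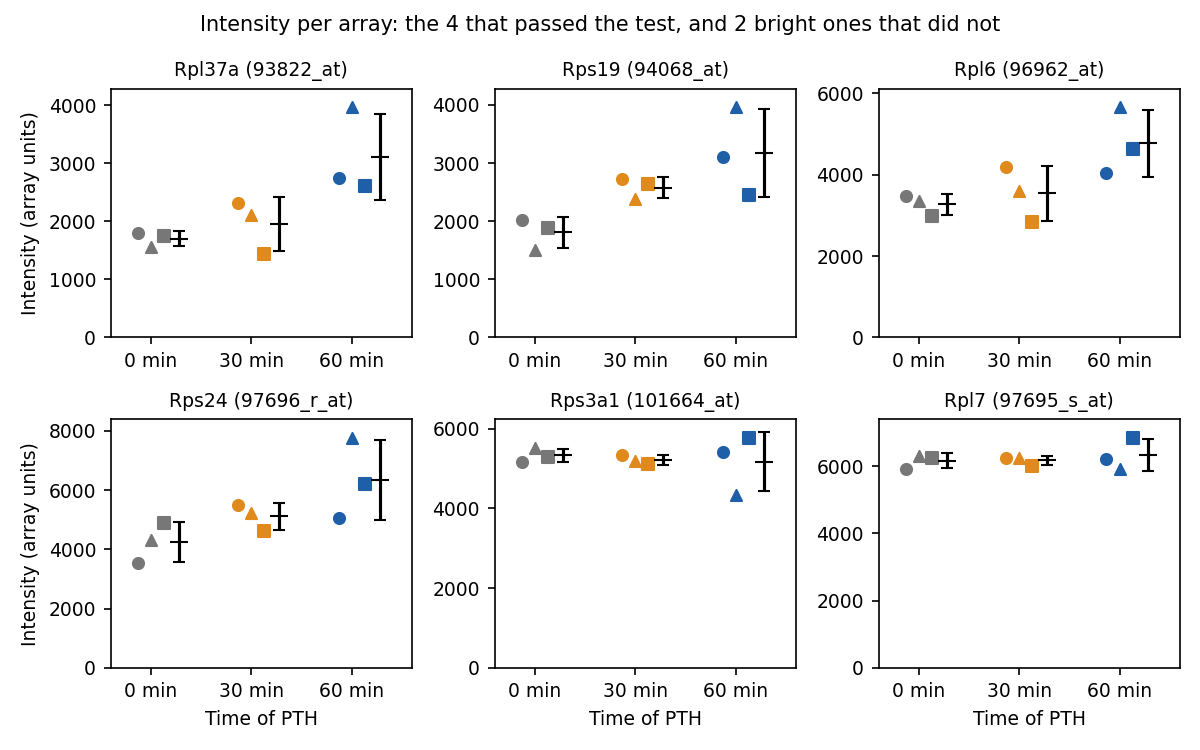
Intensity on each array (array units, linear axis from 0) of the 4 probe sets that passed the test at 60 min, and of Rps3a1 and Rpl7, which did not; points are arrays (circle a, triangle b, square c) and bars the mean ± SD of 3 arrays. The 60 min arrays of Rpl37a, at 2607 to 3962, lie above all its other arrays, while those of Rps3a1 and Rpl7 overlap the earlier times.

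The start regions of genes of these proteins were read from RefSeq (GRCm38.p6), which held 37 start windows of 300 bases (250 before and 50 after the start) for 28 of the 35 genes; Rpl32, Rpl7, Rpl8, Rps14, Rps20, Rps29 and Rps4l had no entry. Shown are 60 bases before and 20 after the first listed start for the genes of the 4 probe sets that passed the test, and for Rps10 and Rps27, in which a pyrimidine run lies just after the start. Capitals mark matches to CTTTCC, a pyrimidine run of the TOP kind, or to CCGGAAG, an ETS-type motif. They lie at chr1:72711200-72711279 (plus strand) for Rpl37a, chr7:24884532-24884611 (plus) for Rps19, chr5:121204441-121204520 (plus) for Rpl6, chr14:24490618-24490697 (plus) for Rps24, chr17:27635225-27635304 (minus) for Rps10 and chr3:90213629-90213708 (minus) for Rps27.
Rpl37a: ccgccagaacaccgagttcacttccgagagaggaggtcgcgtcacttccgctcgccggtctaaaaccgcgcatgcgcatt
Rps19: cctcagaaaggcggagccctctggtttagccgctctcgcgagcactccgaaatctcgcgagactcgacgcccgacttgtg
Rpl6: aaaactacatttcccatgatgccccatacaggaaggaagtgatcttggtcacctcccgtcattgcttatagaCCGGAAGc
Rps24: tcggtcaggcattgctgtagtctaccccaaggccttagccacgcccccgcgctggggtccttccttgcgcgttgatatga
Rps10: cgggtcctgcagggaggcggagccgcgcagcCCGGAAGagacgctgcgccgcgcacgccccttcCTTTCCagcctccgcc
Rps27: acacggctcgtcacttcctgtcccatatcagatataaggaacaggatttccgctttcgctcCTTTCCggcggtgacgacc
The 4 genes called at 60 min share no marked motif in these stretches: only Rpl6 has one, a CCGGAAG after the start. In their whole windows, other starts included, Rpl6 and Rps19 also hold CTTTCC.

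Over the whole windows, both strands searched, CTTTCC was in 54.1% of the 37 ribosomal protein windows against 26.6% of all 32851 windows. This counts matches before the start and on the opposite strand too, so it is not the share of mRNAs that begin with the run. CCGGAAG was in 32.4% against 8.86%, and AAGATGGC, a YY1-type motif, in 18.9% against 2.75%. The cAMP response element TGACGTCA, the binding motif of CREB, was in 0 of the 37 windows and in 1.79% of all. Several windows of 1 gene overlap, 1 pair of different motifs overlapped, and a match is only a match of letters.

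Just outside the threshold lay other bright members. Rps10, a small subunit protein also mutated in Diamond-Blackfan anaemia, read 5134, 5658 and 5725 at 0 min, 5960, 6170 and 5599 at 30 min, and 6187, 8181 and 6841 at 60 min. Its 60 min arrays lay above both earlier groups, and the difference from 0 min was 0.35 (SE 0.11, limma adjusted p = 0.0527). Rpl7a, of the large subunit, read 3751, 3843 and 3935 at 0 min and 4637, 4963 and 4321 at 60 min. Its groups did not overlap, and the difference was 0.27 (SE 0.09, limma adjusted p = 0.0657). After quantile normalization these differences were 0.08 and −0.02 (limma adjusted p = 0.338 and 0.878). The platform annotation gives the Rpl7a probe set the same source sequence as probe sets of Surf1 and Surf2. Which mRNA it reads was not checked.

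Rpl13a, a large subunit protein that can leave the ribosome to repress inflammatory mRNAs, read 901, 939 and 860 at 0 min. It read 733, 1265 and 1131 at 30 min and 1202, 1457 and 1183 at 60 min, so that the 60 min arrays lay above those at 0 min and not above those at 30 min. The difference at 60 min was 0.50 (limma adjusted p = 0.0876) and 0.45 after quantile normalization (limma adjusted p = 0.0973). Rpl41, the shortest ribosomal protein, had one of the largest differences at 60 min, 0.69, with a wide spread: 151, 319 and 161 at 0 min, 169, 335 and 157 at 30 min, and 315, 483 and 231 at 60 min. Array b was the highest of each time, the groups overlapped, and the limma adjusted p was 0.202. Without array b at 60 min the difference was 0.42.

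Rpl7 and Rps3a1, both among the brightest members, had differences near or below 0. Rpl7, of the large subunit, read 5906 to 6308 at 0 min and 5898 to 6841 at 60 min, a difference of 0.04 (limma adjusted p = 0.797) that was −0.22 after quantile normalization (0.169). Its probe set 97695_s_at has the same annotated source sequence as 97696_r_at of Rps24, which differed by 0.57, so its identity is uncertain as well. Rps3a1, of the small subunit near the mRNA exit, read 5174, 5511 and 5297 at 0 min and 5420, 4336 and 5773 at 60 min. Here array b was the lowest of all 9, where most members were highest, and the difference was −0.05 (limma adjusted p = 0.775), or −0.28 after quantile normalization (0.169). The 60 min arrays of both lay below all 0 min arrays after quantile normalization only.

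Members of both subunits were among those called at 60 min. The 15 tested large subunit probe sets had a median difference of 0.27 with 2 called (13.3%). The 17 of the small subunit had 0.29 with 2 called (11.8%). Of all tested probe sets 4.35% were called higher, and of the brightest 10% 14.6%. After quantile normalization the medians were 0.13 and 0.08, with 1 called in each (6.67% and 5.88%). Of all tested 4.86% were then called higher, and of the brightest 10% 9.0%. Rplp0, the base of the stalk that recruits elongation factors, read 3500 to 4006 at 0 min and 3648 to 5323 at 60 min, with overlap and a difference of 0.25 (limma adjusted p = 0.333). Rps3, at the mRNA entry of the small subunit, had 0.34 (0.104), Rps18 0.29 (0.129), Rps7 0.28 (0.145) and Rpl8 0.28 (0.213). Without array b at 60 min these were 0.12 for Rplp0, 0.22 for Rps3, 0.17 for Rps18, 0.18 for Rps7 and 0.14 for Rpl8. Rpsa, also known as the laminin receptor, had 0.38 (0.118), and the zinc-finger protein Rps27 0.18 (0.423). Rpl7l1, a paralog that acts in assembly, had 0.01 (0.967). The lowest were a dim Rps28 probe set (98086_r_at), at −0.28, and Rps13, at −0.24, with limma adjusted p of 0.511 and 0.621.

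**Figure D3:**
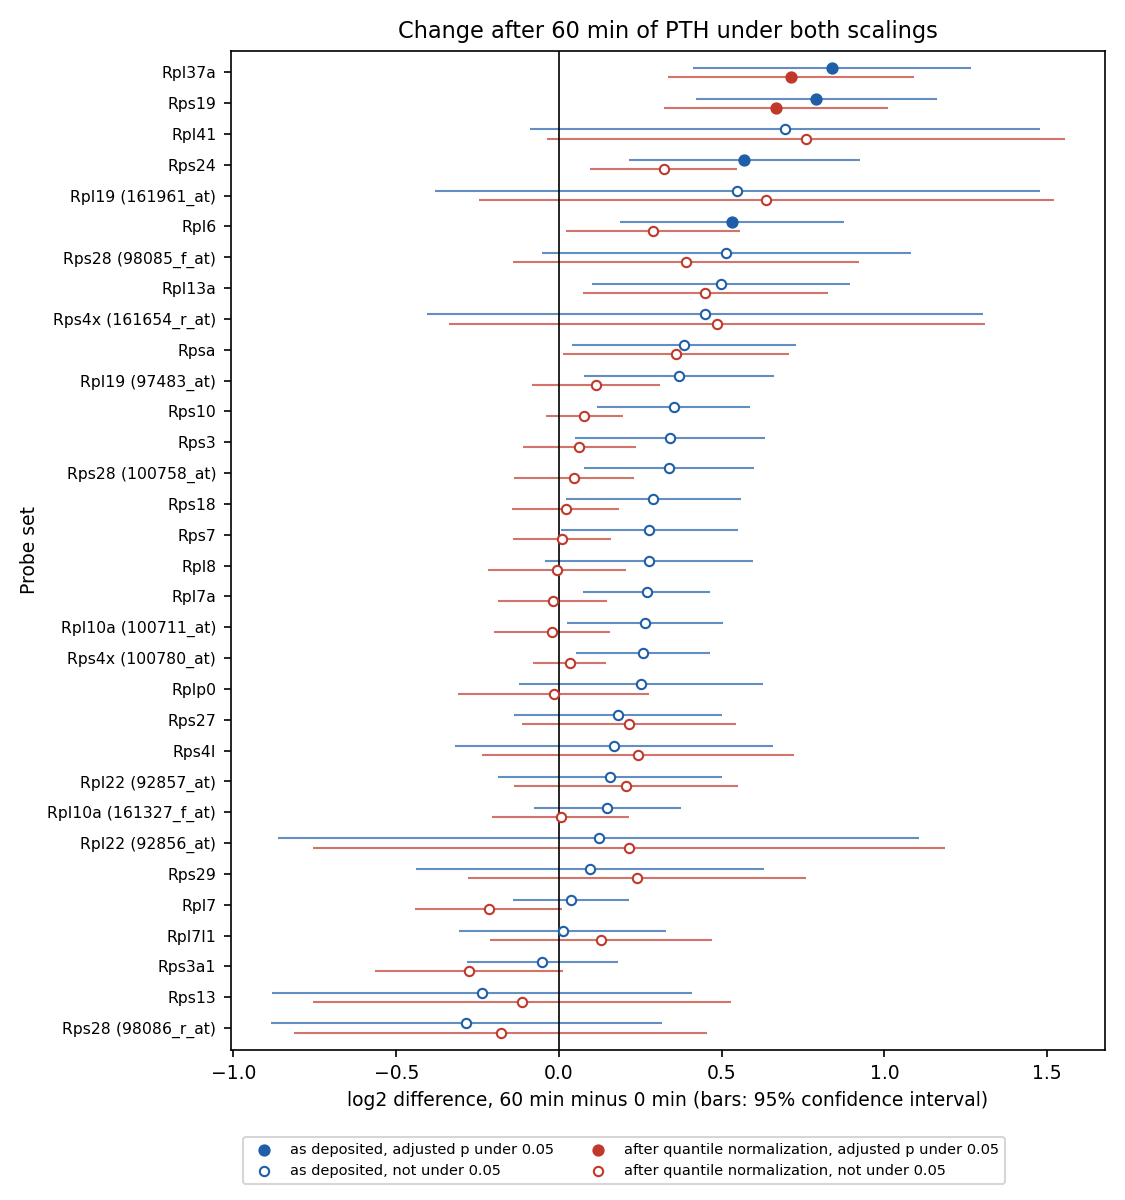
Log2 difference of 60 min from 0 min for the 32 tested ribosomal protein probe sets, as deposited (blue) and after quantile normalization (red), with 95% confidence intervals from limma; filled points have an adjusted p under 0.05. Rpl37a and Rps19 are filled under both scalings, Rpl6 and Rps24 as deposited only.

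As a list, 29 of the 32 tested members (90.6%) had a positive difference at 60 min. Of all tested probe sets 53.4% did, and of the brightest 10% 73.0%. After quantile normalization 24 members (75%) did, against 58.9% of all tested and 58.9% of the brightest 10%. The 29 include 161654_r_at of Rps4x and 98148_at of Rps4l, above the filter intensity at 0 min on 0 and 1 of 3 arrays. For these the filter favoured a rise. The members' median as deposited was 0.28, beside 0.03 over all tested probe sets and 0.20 over the brightest 10%. For 12 members (37.5%) all 60 min arrays lay above all 0 min arrays and for 0 below, against 20% above and 20.7% below among all tested. In the brightest 10%, the share above was 46.3%, and of the 19 members there it was 57.9%. After quantile normalization 5 members (15.6%) lay above and 2 (6.25%) below, against 23.3% and 18.2% of all tested, so that the members' share above was then below that of all. The quantile-normalized median was 0.12, beside 0.08 over all tested and 0.05 over the brightest 10%. The scaling moved the bright members more than the dim ones: the 19 in the brightest 10% had a median of 0.29 as deposited and 0.03 after quantile normalization, and the 13 dimmer ones 0.17 and 0.24.

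Array by array, the members' median difference from the 0 min mean was −0.06, 0.04 and 0.05 at 0 min. It was 0.16, 0.13 and −0.04 at 30 min and 0.16, 0.53 and 0.25 at 60 min. Array b at 60 min held the highest value of 21 members (65.6%), against 25.9% of all tested probe sets. After quantile normalization it held that of 13 members. The share of all tested was not computed there, so nothing is read from the 13. The quantile-normalized medians at 60 min were 0.07, 0.12 and 0.10. The summed intensity of the 32 tested members was 2.02 ± 0.07% of the array total at 0 min, 2.10 ± 0.14% at 30 min and 2.43 ± 0.23% at 60 min (SD, n = 3). After quantile normalization it was 2.12 ± 0.029%, 2.17 ± 0.092% and 2.25 ± 0.031% (SD, n = 3). In such bulk RNA, fewer cells of a type and less RNA per cell cannot be told apart. The part in these results of what sets array b at 60 min apart was not tested.

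**Figure D4:**
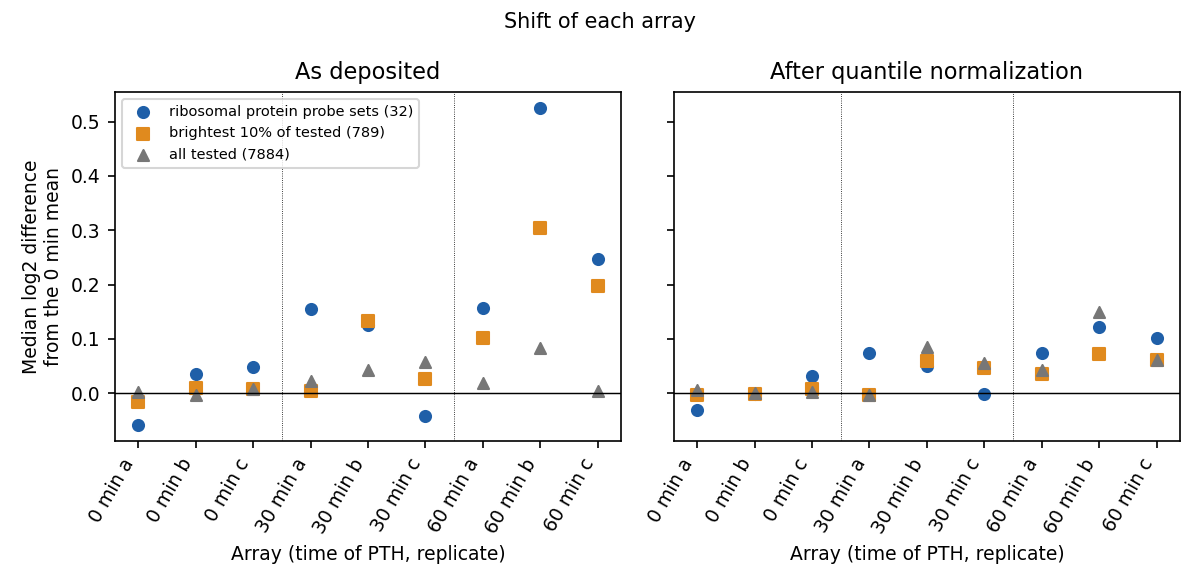
Median log2 difference of each array from the 0 min mean, as deposited (left) and after quantile normalization (right), for the 32 tested ribosomal protein probe sets, the brightest 10% and all tested probe sets. As deposited, array b at 60 min is at 0.53 for the ribosomal proteins and 0.30 for the brightest 10%; after quantile normalization these are 0.12 and 0.07.

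At 30 min, 0 members were called higher or lower than at 0 min by limma, against 0.482% called higher and 0.457% lower among all tested probe sets. At an unadjusted p under 0.05, 2 members (6.25%) were higher and 0 lower, against 8.16% and 9.75% of all. After quantile normalization the counts were again 2 and 0, against 9.27% and 10.2% of all. The median difference of the members was 0.10, beside 0.05 over all tested, and was 0.03 without array a at 30 min and 0.04 without array a at 0 min. For 4 members the 30 min arrays lay above those at 0 min and for 0 below, 12.5% against 15.3% above and 15.3% below among all tested. After quantile normalization it was again 4 and 0, against 16.1% and 15.4%. As deposited the 4 were Rps19 and 3 dim probe sets, 161961_at of Rpl19, 161654_r_at of Rps4x and 98148_at of Rps4l, the last an autosomal paralog of Rps4x (0.39, limma adjusted p = 0.378). At 0 min, 161654_r_at lay above the filter intensity on 0 of 3 arrays and 98148_at on 1, so the filter favoured members high under PTH here and nothing is read from the share. After quantile normalization 0 members were called, against 0.66% called higher and 1.14% lower, with a median of 0.06. The lowest differences at 30 min were those of Rps28 98086_r_at (−0.33), Rps13 (−0.22), Rplp0 (−0.09), Rpl8 (−0.03) and Rps3a1 (−0.03), with limma adjusted p from 0.538 to 0.927.

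Rpl19, a large subunit protein, has 2 probe sets that differed at 30 min. The dim probe set 161961_at read 37.7, 51.4 and 94.9 at 0 min, 188, 167 and 212 at 30 min, and 181, 95.2 and 38.8 at 60 min. Its 30 min arrays lay above those at 0 min, with a difference of 1.53 (SE 0.42, limma adjusted p = 0.112), the largest of any member, and its 60 min arrays overlapped both earlier groups (0.55 from 0 min, limma adjusted p = 0.403). The bright probe set 97483_at read 3315, 3418 and 3787 at 0 min and 3509, 3878 and 3013 at 30 min, a difference of −0.02 (limma adjusted p = 0.944). Of the Rps4x probe sets, 161654_r_at read 21.2, 22.9 and 37.5 at 0 min and 71.2, 46.6 and 54.9 at 30 min (0.84, limma adjusted p = 0.287), while 100780_at read 5557 to 6170 and 5677 to 6410 (0.05, 0.798).

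Between 30 and 60 min, 0 members were called by limma in either direction, and of all tested probe sets, 0% were called higher and 0.0254% lower. At an unadjusted p under 0.05, 8 members (25%) were higher and 1 (3.13%) lower, against 4.13% and 4.93% of all and 19.3% higher in the brightest 10%. After quantile normalization 1 was higher and 1 lower, against 4.16% and 3.55% of all. For adjusted calls the same shares held after quantile normalization (0% and 0.0254%), again with 0 members. The members' median difference was 0.23 as deposited, beside −0.05 over all tested and 0.12 over the brightest 10%, and 0.04 after quantile normalization. Without array b at 60 min it was 0.13. The 60 min arrays lay above the 30 min arrays for 6 members (18.8%) and below for 1, against 5.06% and 6.49% of all tested and 17.0% above in the brightest 10%. After quantile normalization they lay above for 1 member (3.13%) and below for 1, against 6.09% and 4.29% of all. The largest differences were those of Rpl37a (0.67), Rpl41 (0.63), Rpl6 (0.43), Rps28 98085_f_at (0.40) and Rpl19 97483_at (0.39), with limma adjusted p from 0.526 to 0.619. The lowest were those of the dim probe sets of Rpl19 (−0.98), Rpl22 (92856_at, −0.41), Rps4x (161654_r_at, −0.39) and Rps4l (98148_at, −0.22), and of Rpl7l1 (−0.11), with limma adjusted p from 0.54 to 0.781.

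Where a gene has several probe sets, they are given here side by side. Rps28 has 3: at 60 min 100758_at differed by 0.34 and 98085_f_at by 0.51, while the dim 98086_r_at differed by −0.28, and none passed (limma adjusted p = 0.0807, 0.191 and 0.511). Without array b at 60 min these were 0.19, 0.31 and −0.15. Those of Rpl10a differed by 0.26 and 0.15 (0.122 and 0.342), and those of Rpl22, whose paralog can replace it in the ribosome, by 0.16 and 0.12 (0.529 and 0.878); at 30 min the dimmer one of Rpl22 (92856_at) differed by 0.53 (0.542). For Rps29 the tested probe set 98523_at differed by 0.10 (0.821), and for Rps4l 98148_at by 0.17 (0.642). A further 39 probe sets list a ribosomal protein together with other symbols and are not named. Of these, 35 were tested, with 2 called higher (5.71%) and 0 lower at 60 min. Of all tested probe sets 4.35% were called higher and 8.73% lower, and in the brightest 10% 14.6% higher. The median difference of the 35 was 0.27, beside 0.03 over all tested and 0.20 over the brightest 10%. After quantile normalization it was 0.10, beside 0.08 and 0.05.

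Genes of ribosome assembly moved both ways at 60 min. Of 74 tested probe sets for ribosome assembly and rRNA synthesis (66 genes), 4 rose (5.41%) and 13 fell (17.6%), against 4.35% and 8.73% of all tested, with a median difference of −0.13. After quantile normalization 5 rose (6.76%) and 10 fell (13.5%), against 4.86% and 7.9% of all, with a median of −0.03. More falling than rising was also the pattern of all tested probe sets, and 0 of the list were called at 30 min by limma. Nop58, a core protein of box C/D snoRNPs, went from 229 ± 14.3 at 0 min to 130 ± 68.9 at 30 min and 90.2 ± 39.9 at 60 min (SD, n = 3), a difference of −1.33 at 60 min (limma adjusted p = 0.0394). Wdr43 (98973_at, −1.25, 0.0332), Brix1 (−1.18, 0.0223) and Krr1 (98090_at, −1.06, 0.0246), which act in rRNA processing and subunit assembly, fell as well; a second Wdr43 probe set (102385_at) differed by −0.70 (0.0511) and did not pass. Those that rose were Nhp2, of box H/ACA snoRNPs (0.63, limma adjusted p = 0.0158), Nop16 (95656_i_at, 0.56, 0.04), Eif6, which keeps new large subunits apart from small ones (0.55, 0.0363), and Bop1, a large subunit assembly factor (0.53, 0.0307). A brighter Nop16 probe set (95657_f_at) differed by 0.26 (0.267) and did not pass. The 8 probe sets named as risen or fallen kept their call after quantile normalization.

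Of the other TOP mRNAs, 24 probe sets for 21 genes were tested, and 2 rose and 2 fell at 60 min (8.33% each way, against 4.35% and 8.73% of all tested). After quantile normalization 0 rose and 3 fell (12.5%), against 4.86% and 7.9% of all. The elongation factor subunit Eef1d (0.49, limma adjusted p = 0.0478) and the elongation factor Eef2 (0.39, 0.0448) rose as deposited only. The helicase Eif4a2 read 2216 ± 160 at 0 min, 1234 ± 459 at 30 min and 713 ± 263 at 60 min (SD, n = 3), a difference of −1.70 (limma adjusted p = 0.0116). Npm1, the nucleolar chaperone that is in both lists, differed by −0.94 (0.0207); both fell under both scalings. Among 16 tested probe sets for S6 kinases and the mTOR pathway (12 genes), 0 were called at either time by limma, and the median difference at 60 min was 0.07. Fau, the source of the small subunit protein eS30, lies outside the name rule and did not pass the filter.

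Markers of other cells were in part measurable. Summed over the list, endothelial markers read 29.3 to 45.3 at 0 min, 37.6 to 70.8 at 30 min and 81.1 to 95.3 at 60 min, with 0 of 4 probe sets tested, and chondrocyte markers had 0 of 3 tested. Adipocyte markers had 2 of 5 tested (185 to 189, 164 to 189 and 168 to 192), haematopoietic and osteoclast markers 4 of 10 (871 to 947, 840 to 993 and 786 to 859) and muscle markers 3 of 5 (176 to 292, 305 to 330 and 265 to 372). The summed osteoblast markers read 14248 to 15906, 15446 to 15981 and 16369 to 19499, so that the 60 min arrays lay above both earlier times. The endothelial sums did too. All these sums are as deposited. The tested osteoblast markers had a median difference at 60 min of 0.12 as deposited and −0.03 after quantile normalization. Of these lists, Ckm, the muscle creatine kinase (0.86, limma adjusted p = 0.0197), and Col1a1 (94305_at, 0.56, 0.0499) rose at 60 min, the latter as deposited only. No marker probe set was at 0 on any array, and the part of other cells in the results was not tested.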

How the data were processed

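The deposited table holds 1 linear intensity per probe set and array, from 0.1 to 8605, and was used as it stands because its arrays already share 1 scale. How the authors summarised and scaled it is not given in the sources used here. Gene names came from the platform annotation.

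Intensities became log2(intensity + 11.8), with the 20th percentile of the table as constant, so differences of dim probe sets are understated. Probe sets with at least 3 of 9 arrays above the 40th percentile (44.7) were tested and 66 control probe sets left out, leaving 7884. A model with a mean for each time was fitted across the 9 arrays in limma 3.58.1 (R 4.3.3; lmFit, eBayes with a variance trend), with Benjamini-Hochberg adjustment over all tested probe sets and a threshold of 0.05 in 3 comparisons. The comparisons of 30 and of 60 min with 0 min share the 0 min arrays. The smallest p that an exact permutation of 3 against 3 arrays allows is 0.1, and the number of arrays limits the precision. The fit was tested on simulated data.

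The members and the lists were chosen with earlier results of these data known. Named members are those called under either scaling, the 5 largest differences each way per comparison, the 5 with the highest and 3 with the lowest means, genes with several probe sets and members not tested; of each other list, up to 4 called members per direction, with Fos and Nr4a1 as the treatment check. A few near-threshold or subunit examples (Rps10, Rpl7a, Rplp0, Rps3, Rps18, Rps7, Rpl8, Rpsa, Rps27 and Rpl7l1) were named after their values were seen. Alternatives were quantile, 75th percentile and cyclic loess scaling, other constants and filters, no variance trend, only the times compared, a replicate block, 1 probe set per gene, no suffix-marked probe sets, and each array left out.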

Additional observations from a re-analysis of the deposited data

How the results depend on the processing

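The number of members higher at 60 min, 4 in the main setting, was 2 under quantile normalization, cyclic loess, no filter or no variance trend. It was 6 under 75th percentile scaling and 7 with the replicate block, which called Rpl41 (limma adjusted p = 0.0112). The 343 called higher over all probe sets became 383, 227, 210, 193, 499 and 492 in these settings, in that order. The members' number ran from 0 to 10 when 1 array was left out: 0 without any 0 min array, 2 without 30 min b, 10 without 60 min a, 1 without 60 min b and 2 without 60 min c. Over all probe sets, 31, 38 and 72 were called higher without 0 min a, b and c. There were 349 without 30 min b, 534 without 60 min a, 155 without 60 min b and 181 without 60 min c. Under quantile normalization with 60 min b left out, 0 members were higher, and 156 of all probe sets. That alternative was chosen after seeing the data. At 30 min the 0 became 2 when only the 2 times were compared and 2 in that added alternative, and ran from 0 to 1 with an array left out. Over all probe sets the 38 called higher at 30 min became 105 and 229 in the first 2 of these, and 166 without 60 min b, which gave the 1. The median difference at 60 min, 0.28, became 0.12 under quantile normalization, 0.13 under cyclic loess and 0.059 in the added alternative. For 60 against 30 min the 0.23 became 0.038, 0.089 and 0.031 under these, and 0.061 with no filter. Under 75th percentile scaling the 2 medians were larger, at 0.34 and 0.29. With an array left out the medians ran from 0.031 to 0.12 at 30 min, from 0.20 to 0.35 at 60 min and from 0.13 to 0.30 for 60 against 30 min. The causes were not tested. Correlations of deviations between same-letter arrays ran from −0.13 to 0.30. They were not compared with those between different letters, so whether the letters pair the arrays was not tested. Of the 92 member comparisons that were not called, 81 stayed uncalled over up to 20 alternatives. The 1 probe set per gene and no suffix-marked probe sets alternatives were not checked for this. Over all probe sets, the calls at 60 min (343 higher, 688 lower) were fewest without 0 min a (31 and 46), and those at 30 min (38 and 36) most in the added alternative (229 and 486).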
